A study of Mus musculus with 4 samples.

Results

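The joining (J) segments of the mouse T cell receptor alpha and beta loci were described in 4 RNA-seq libraries of CD8+ T cells from tumour grafts. Members were all rows whose Ensembl identifier carries a GRCm38 symbol beginning with Traj or Trbj, which gave 70 of the 36464 rows in each file: 56 alpha (Traj) and 14 beta (Trbj) segments. Of the 60 annotated Traj genes, Traj52, Traj53, Traj55 and Traj57 were not analysed here, and all 14 Trbj genes were present. The annotation calls 48 of the Traj rows J genes and 8 pseudogenes, and 13 of the Trbj rows J genes and 1 a pseudogene. None of the 70 rows overlaps another annotated gene.

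The host animals were wild-type male C57BL/6 mice that carried a percutaneous tumour graft and received intraperitoneal control IgG or an antibody that blocks SIGLEC15, an immunoglobulin-like lectin of myeloid and tumour cells, for 2 weeks, with grafts taken on day 19. There were 6 mice per treatment, and each library mixed the cell pellets of 3, so that each treatment had 2 libraries, called IgG 1, IgG 2, anti-SIGLEC15 1 and anti-SIGLEC15 2 below. A library is thus a pool, so an SD or p below measures how pools varied, not individual mice. The injected antibody is the only labelled difference between the groups.

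A developing T cell builds its receptor by V(D)J recombination, in which the RAG proteins cut next to 1 V and 1 J segment (with a D segment between them in beta) and DNA repair proteins join the ends. The J segment encodes the last stretch of the variable domain, including part of the CDR3 loop that touches peptide and MHC, and ends in a splice site that joins it to the constant exon. J segments that lie between the chosen one and the constant gene stay in the rearranged locus, are transcribed as part of the intron and are spliced out. Alpha J segments lie in 1 long array before the single constant gene Trac, numbered downwards towards it. Beta J segments lie in a pair of short clusters, Trbj1 before the constant gene Trbc1 and Trbj2 before Trbc2. A library's J reads can therefore come from J exons joined to a V, from introns, or from unrearranged loci, and the tables do not tell these apart.

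Each sequence below is the whole J segment of the GENCODE M21 transcript on GRCm38, plus strand, 5′ to 3′. Capitals mark the match to the motif of 12 bases that most J segments share, any codons in a row for phenylalanine or tryptophan, glycine, any residue and glycine, searched on both strands and in every frame. The alpha segments shown first are the pair with the highest mean share of Traj values among all rows, Traj1 (chr14:54218814-54218842, pseudogene) and Traj3 (chr14:54217292-54217357), then the pair that, among rows with at least 20 reads, took a higher share in both libraries of treated mice, Traj16 (chr14:54203134-54203194) and Traj27 (chr14:54192303-54192361), and the J segments of invariant NKT cells, Traj18 (chr14:54200777-54200842), and of MAIT cells, Traj33 (chr14:54185358-54185414).
Traj1: gtgtgcagatagctgctccatctttcctg
Traj3: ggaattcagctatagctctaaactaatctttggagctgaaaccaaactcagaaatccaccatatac
Traj16: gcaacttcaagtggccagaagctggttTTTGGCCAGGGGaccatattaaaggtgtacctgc
Traj27: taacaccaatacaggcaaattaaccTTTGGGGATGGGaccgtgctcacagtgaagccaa
Traj18: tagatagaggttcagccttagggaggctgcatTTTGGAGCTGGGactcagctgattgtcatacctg
Traj33: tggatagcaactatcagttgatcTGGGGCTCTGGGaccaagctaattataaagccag
The beta segments shown are Trbj1-5 (chr6:41535084-41535133), the Trbj1 segment with the highest mean share, and Trbj2 segments picked because their values were separated by treatment, none of which passed the test. These are Trbj2-2 (chr6:41542957-41543007), Trbj2-4 (chr6:41543362-41543410), the pseudogene Trbj2-6 (chr6:41543598-41543645) and Trbj2-7 (chr6:41543810-41543856).
Trbj1-5: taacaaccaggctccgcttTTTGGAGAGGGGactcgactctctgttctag
Trbj2-2: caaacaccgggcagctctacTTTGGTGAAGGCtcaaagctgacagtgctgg
Trbj2-4: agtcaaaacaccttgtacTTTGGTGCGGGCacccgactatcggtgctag
Trbj2-6: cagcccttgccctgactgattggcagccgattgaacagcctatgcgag
Trbj2-7: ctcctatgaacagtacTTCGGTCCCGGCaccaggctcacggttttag

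The motif was present in 42 of the 56 Traj rows (41 of 48 J genes and 1 of 8 pseudogenes) and in 11 of the 14 Trbj rows, always on the coding strand and never on the reverse strand. It opened with the phenylalanine codon TTT in 33 Traj and 7 Trbj rows, with the phenylalanine codon TTC in 7 and 4, and with the tryptophan codon in 2 Traj rows, of which Traj33 is 1. In the first 60 bases of 141470 other annotated transcripts, the share with a match was 1.81% on the coding and 1.32% on the reverse strand. In the segments printed here, 22 bases follow the motif in alpha and 19 in beta. Traj1, Traj3 and Trbj2-6 hold no match, which says only that these letters are not in these windows. The bases flanking the segments were not analysed here.

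J segments are among the shortest genes of the annotation, and this sets the scale of every value below. Traj rows are 29 to 72 bases long (median 60.5) and Trbj rows 46 to 54 (median 49). The deposited values are read as RPKM, reads scaled to the exon length in kilobases and to the counted reads of the library, and 1 read on a segment of 60 bases was worth 1.04 to 1.122 RPKM, depending on the library. Whole reads could be recovered from the values, and each library held 14854802 to 16026197 counted reads. Over the 4 libraries together, all Traj rows had 1609 reads and all Trbj rows 747. Traj29 was the only Traj row at 0 in every library, 28 Traj and 10 Trbj rows were above 0 in all 4, and 23 Traj and 11 Trbj rows reached 20 reads over all libraries. A share of summed RPKM gives a short segment more weight than a share of reads, so both are given where they differ, and 95% Wilson intervals of read shares cover counting error only.

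Total J signal separated 1 library from the other 3 and did not separate the treatments. J reads for each 1000000 counted reads were 9.67 in IgG 1, 57.3 in IgG 2, 45.4 in anti-SIGLEC15 1 and 40.3 in anti-SIGLEC15 2. IgG 1 was the low library, and IgG 2 was above both anti-SIGLEC15 libraries. T cell markers moved with it: 12 of 12 marker genes (CD3 chains, Lck, Zap70, Cd8a and others) were present with none at 0, their summed RPKM ran from 710.7 to 2043 in the IgG libraries and from 1797 to 1859 in the anti-SIGLEC15 libraries, and IgG 1 was the lowest. Cd8a stood at 115 to 351 RPKM and Cd4 at 2.04 to 6.83 RPKM over the 4 libraries. The summed RPKM of 6 hepatocyte and hepatoma markers, none at 0, was 5546 in IgG 1, 1094 in IgG 2, 2297 in anti-SIGLEC15 1 and 1151 in anti-SIGLEC15 2, with IgG 1 the highest. Alb, Trf and Afp made up most of that sum. Apoa1 and Apoa2 were instead highest in anti-SIGLEC15 1, at 92.2 and 15.3 RPKM against 64.4 and 3.95 in IgG 1. The summed RPKM of 3 neutrophil markers was 739.1, 58.32, 193 and 318 in the same order of libraries, with IgG 1 the highest. All 4 red cell markers (haemoglobin genes) were lower in both anti-SIGLEC15 libraries, beside 6.02% of all genes tested, with summed RPKM of 689.9, 1925, 112.7 and 19.8, and limma called 0 of the 4. The part of these marker lists in the J levels was not tested. In bulk libraries, fewer T cells and less receptor RNA per cell cannot be told apart.

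The summed Traj RPKM was 121.2 in IgG 1, 594.5 in IgG 2, 639.5 in anti-SIGLEC15 1 and 557.9 in anti-SIGLEC15 2. The groups overlapped on this scale, and IgG 1 alone lay apart. Means were 358 ± 335 (SD, n = 2) for IgG and 599 ± 57.7 (SD, n = 2) for anti-SIGLEC15, with a two-sided exact permutation p of 0.667 (n = 2 per group), where 0.333 is the smallest p that 2 against 2 can give. Without IgG 1, the log2 ratio of the means was 0.01, against 0.74 with all libraries. After scaling to the T cell markers, both anti-SIGLEC15 libraries lay above both IgG libraries. The log2 ratio was then 0.48 (exact permutation p = 0.333, n = 2 per group, the smallest possible). On the scales that do not use these markers, the groups still overlapped. Per RPKM of Trac, the alpha constant gene, summed Traj was 0.42, 0.62, 0.70 and 0.62 in the same order of libraries. For each 100 reads on alpha V segments (Trav), Traj had 12.9, 21.3, 24.6 and 19.5 reads (exact permutation p = 0.667, n = 2 per group). IgG 1 was lowest on both ratios, and IgG 2 lay between the anti-SIGLEC15 libraries.

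The summed Trbj RPKM was 64.4 in IgG 1, 500.9 in IgG 2, 222.7 in anti-SIGLEC15 1 and 187.4 in anti-SIGLEC15 2. Both anti-SIGLEC15 libraries lay inside the wide range of the IgG libraries. Means were 283 ± 309 (SD, n = 2) and 205 ± 24.9 (SD, n = 2), with an exact permutation p of 1 (n = 2 per group). The log2 ratio of anti-SIGLEC15 to IgG means was -0.46, and it was -1.29 without IgG 1 and 1.67 without IgG 2, so that its sign depended on which IgG library was kept. For each 100 reads on beta V segments (Trbv), Trbj had 3.68, 7.07, 3.82 and 2.60 reads (exact permutation p = 0.667, n = 2 per group). On this ratio the groups overlapped, and IgG 2 was the high library. As a ratio of summed RPKM, or on functional rows only, Trbj to Trbv separated the treatments, with IgG the higher group. The log2 ratios of means were then -0.81 and -0.88 (exact permutation p = 0.333 each, n = 2 per group, the smallest possible). Trbj per RPKM of the beta constant genes was 0.12, 0.217, 0.11 and 0.095. IgG 2 was again the high library, and the groups did not overlap, though IgG 1 lay close to anti-SIGLEC15 1.

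**Figure D1:**
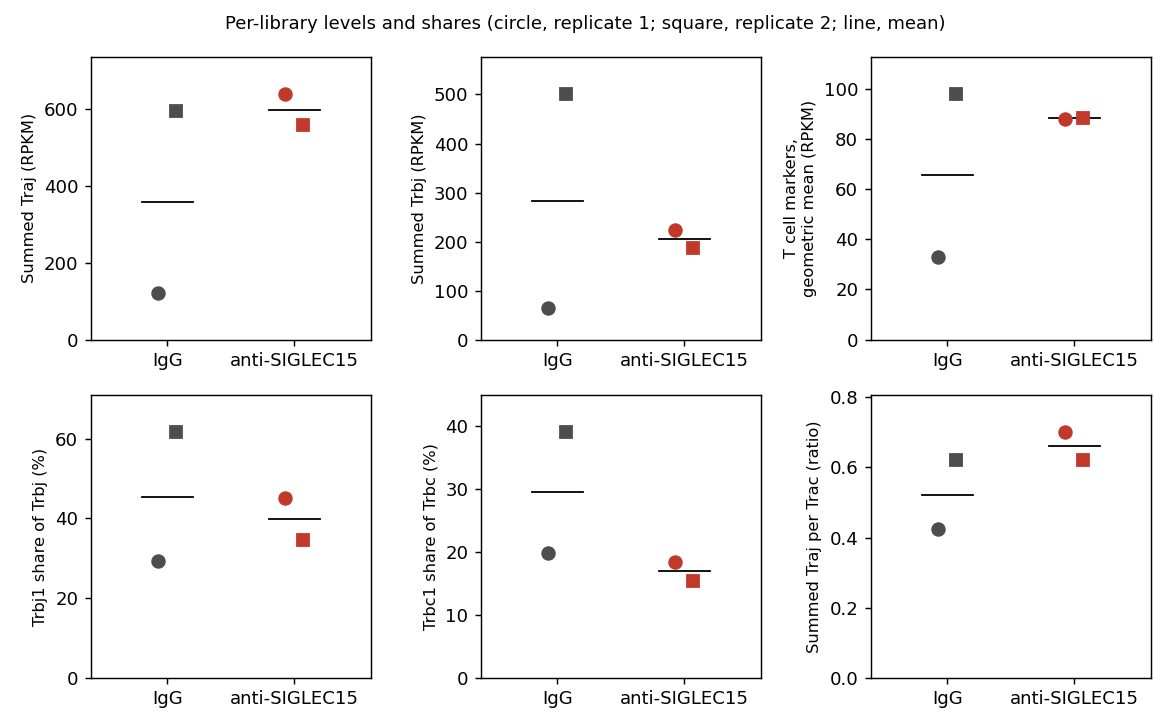
Summed Traj and Trbj RPKM, the geometric mean RPKM of 12 T cell markers, the Trbj1 share of Trbj and the Trbc1 share of Trbc in percent, and summed Traj per Trac, each on a linear axis from 0, for 2 libraries per treatment (circle, replicate 1; square, replicate 2; line, mean). IgG 1 sits lowest in the first 3 panels (121.2 RPKM for Traj), IgG 2 sits highest for Trbj (500.9 RPKM), Trbj1 and Trbc1, and the anti-SIGLEC15 libraries lie closer to each other than the IgG libraries do in every panel.

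Across the whole alpha array, levels declined with distance from Trac in every library. Across the 56 Traj rows, Spearman's rho between RPKM and distance to Trac was -0.70 in IgG 1, -0.83 in IgG 2, -0.80 in anti-SIGLEC15 1 and -0.82 in anti-SIGLEC15 2, a description across segments that share a library and an array. Among Traj1 to Traj20 alone, rho was -0.59, -0.58, -0.78 and -0.26 in the same order of libraries, weakest in anti-SIGLEC15 2. Traj1 to Traj20 (19 rows) took 70.9%, 78.6%, 78.8% and 68.9% of summed Traj RPKM, Traj21 to Traj40 (20 rows) took 27.4%, 16%, 18.2% and 30.1%, and Traj41 to Traj61 (17 rows) took 1.66%, 5.36%, 2.98% and 1.03%. The nearest stretch thus led in all 4 libraries, while the farthest was lowest in anti-SIGLEC15 2 and highest in IgG 2. Means of the farthest stretch were 3.51% ± 2.61 (SD, n = 2) in IgG and 2.00% ± 1.38 (SD, n = 2) in anti-SIGLEC15, with overlapping groups and an exact permutation p of 0.667 (n = 2 per group). It rested on 2, 30, 18 and 5 reads, and without IgG 2 the difference of means turned from -1.51 to 0.34 percentage points. The segment at which the share summed from Trac outwards reached the middle of the signal was Traj8 in IgG 1, Traj7 in IgG 2 and anti-SIGLEC15 1, and Traj16 in anti-SIGLEC15 2, at 10567, 8993, 8993 and 17327 bases from Trac.

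**Figure D2:**
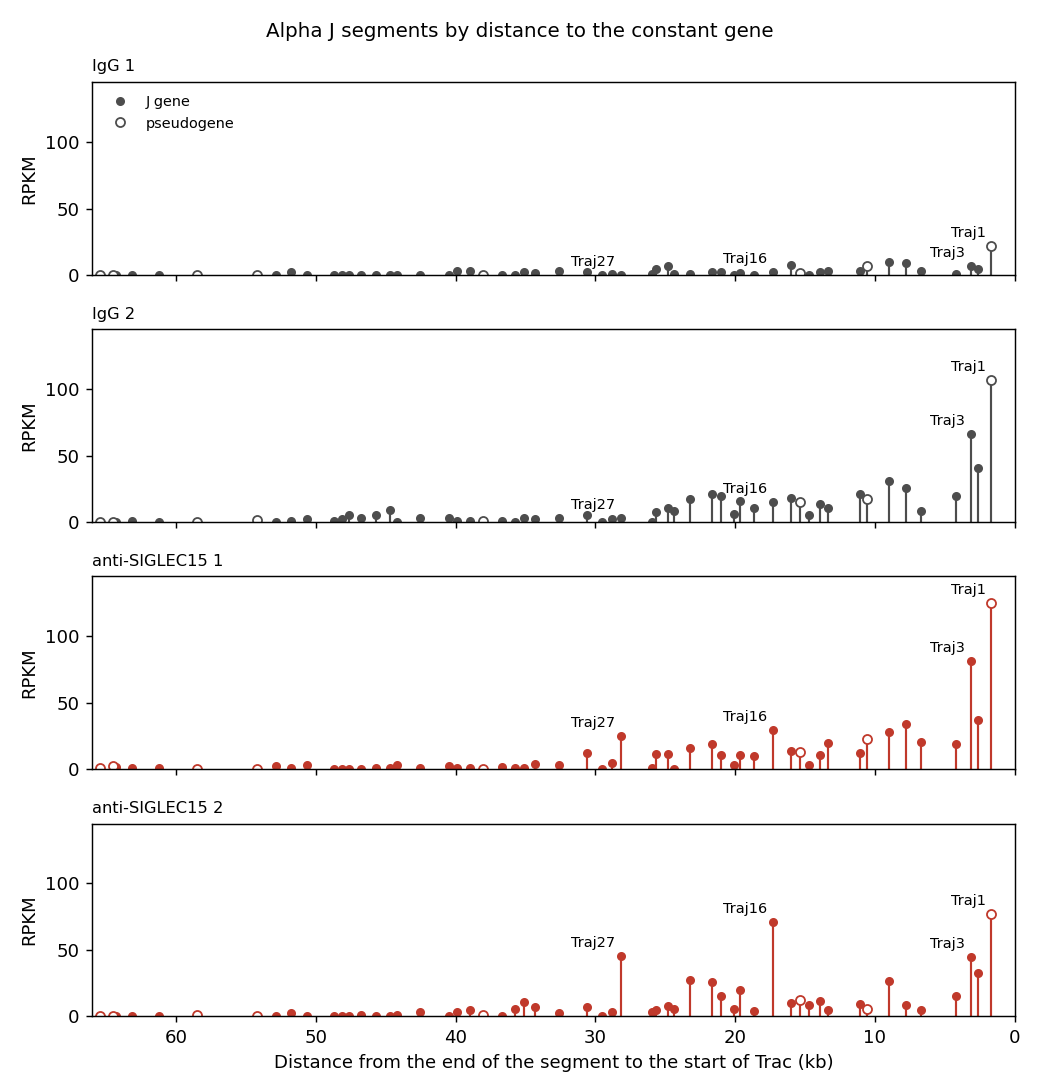
RPKM of each Traj row (vertical axis, linear, same range in all panels) against the distance from its end to the start of Trac in kb, 1 panel per library, with filled points for J genes and open points for pseudogenes. Across the whole array, values climb towards Trac in all 4 libraries. Traj1 reaches 125.2 RPKM in anti-SIGLEC15 1, and Traj16 and Traj27 stand above their neighbours in anti-SIGLEC15 2 at 70.6 and 45.6 RPKM.

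The alpha segment nearest to Trac, the pseudogene Traj1, had the highest RPKM in each library. It lies 1.7 kb from Trac and stood at 21.5 RPKM in IgG 1, 107 in IgG 2, 125 in anti-SIGLEC15 1 and 76.6 in anti-SIGLEC15 2. The low value was that of IgG 1, and the groups overlapped. Traj1 is only 29 bases long, so its share of summed Traj RPKM was 17.8%, 18%, 19.6% and 13.7%, and its share of Traj reads 9.6%, 9.6%, 10.5% and 7.1%. All 8 pseudogenes together took 24.8%, 23.9%, 25.6% and 17.3% of Traj RPKM and 14.4%, 13.6%, 14.8% and 9.5% of reads. Pseudogene rows were therefore present in every library, with anti-SIGLEC15 2 lowest on both scales. Rows without the motif, which include Traj1 and Traj3, took 32.1%, 40%, 41.4% and 29.2% of Traj RPKM.

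Traj3, a J gene 3.2 kb from Trac, stood at 6.62, 66.4, 81.1 and 44.9 RPKM, on 7, 68, 84 and 44 reads. Traj2, next to it, stood at 4.73, 41, 36.7 and 32.6 RPKM. Both were lowest in IgG 1, and for both the value of IgG 2 lay within or above those of the anti-SIGLEC15 libraries. Traj6 stood at 9.06, 26, 33.9 and 8.69 RPKM and the pseudogene Traj8 at 6.75, 17.4, 22.4 and 5.46, each lowest in anti-SIGLEC15 2. Traj21 stood at 2.19, 21.5, 19 and 26 RPKM and Traj22 at 1.04, 17.2, 15.9 and 26.9, each highest in anti-SIGLEC15 2. Traj17 had 0 reads in IgG 1 and stood at 10.2, 10.1 and 4.27 RPKM in the other 3 libraries. The treatment groups overlapped for all of these segments.

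Traj16 and Traj27 were the 2 alpha segments, of 23 with at least 20 reads, whose share in each anti-SIGLEC15 library exceeded that in each IgG library. Traj16, a J gene 17.3 kb from Trac, stood at 2.05 RPKM in IgG 1, 14.8 in IgG 2, 29.2 in anti-SIGLEC15 1 and 70.6 in anti-SIGLEC15 2, on 2, 14, 28 and 64 reads. It was highest in anti-SIGLEC15 2, where it took 12.7% of Traj RPKM, against 1.69%, 2.49% and 4.57% in the others. Pooled over libraries, its reads per counted read were 5.94 times as high in anti-SIGLEC15 (exact 95% interval 3.47 to 10.8, counting error only). Such pooled ratios, here and below, are given only for segments picked because their values were separated. Their intervals leave out the variation between pools and are no test of treatment. The limma log2 fold change of RPKM + 1 was 2.75 (SE 0.89), and it did not pass the test (adjusted p = 1 after rounding, Benjamini-Hochberg).

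Traj27, 28.2 kb from Trac, had 0 reads in IgG 1, 3 in IgG 2, 23 in anti-SIGLEC15 1 and 40 in anti-SIGLEC15 2. Its RPKM was 0, 3.28, 24.8 and 45.6, and both anti-SIGLEC15 libraries lay above both IgG libraries. A count of 0 allows up to 3 reads, which is 3.17 RPKM in IgG 1. The shares of Traj RPKM were 0%, 0.55%, 3.88% and 8.18%, and read shares had intervals of 0.20% to 1.75% in IgG 2, 2.85% to 6.30% in anti-SIGLEC15 1 and 6.41% to 11.6% in anti-SIGLEC15 2. The pooled read ratio was 21.7 (exact 95% interval 7.09 to 108, counting error only), and the limma log2 fold change was 4.07 (SE 0.76, Benjamini-Hochberg adjusted p = 1 after rounding). With 2 libraries per group, the exact permutation p of either share was 0.333, the smallest possible. Both segments were picked for separated shares, which fixes this p in advance, so it adds no support.

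Among the same 23 segments, the 3 with a lower share in both anti-SIGLEC15 libraries were Traj7, Traj9 and Traj15. The share of Traj7 was 7.86% in IgG 1, 5.15% in IgG 2, 4.39% in anti-SIGLEC15 1 and 4.70% in anti-SIGLEC15 2. Traj9 took 2.66% and 3.55% against 1.89% and 1.66%, and Traj15 took 6.01% and 3.07% against 2.16% and 1.81%. None of the 3 was lower in RPKM in both. As background, the same rule on shares within 38 Trav segments found 15.8% higher and 13.2% lower, and the 2 higher and 3 lower of 23 Traj rows were not above these shares.

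The J segments of innate-like T cells did not separate the treatments. Traj18, which invariant NKT cells join to Trav11, stood at 1.89 and 15.6 RPKM in IgG and 10.6 and 19.4 RPKM in anti-SIGLEC15. Traj33, which MAIT cells join to Trav1, stood at 2.19 and 3.39 against 1.12 and 10.6 RPKM, on 2, 3, 1 and 9 reads. Both are J segments that conventional T cells also use.

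On shares of RPKM over all rows, how evenly the alpha segments were used did not separate the treatments. The effective number of segments, the inverse of the sum of squared shares, was 15.07 in both IgG libraries, 13.29 in anti-SIGLEC15 1 and 15.49 in anti-SIGLEC15 2. The anti-SIGLEC15 libraries lay on either side of the IgG libraries (exact permutation p = 1, n = 2 per group), and without anti-SIGLEC15 1 the difference of means turned from -0.69 to 0.42. On shares of reads, both anti-SIGLEC15 libraries lay below both IgG libraries. The difference of means was -2.325 (exact permutation p = 0.333, n = 2 per group, the smallest possible). The groups also separated this way without Traj1 (-2.679) and without pseudogenes (-2.439). Without rows under 10 reads they overlapped (-0.204). The share of Traj RPKM that would have to move between segments to turn one library into another was 32.5% within IgG, 28.6% within anti-SIGLEC15, and 17.6% to 42.1% between treatments over 56 segments. The closest pair was IgG 2 and anti-SIGLEC15 1, which have different treatments.

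In the beta locus, the 2 clusters were balanced differently in the 2 IgG libraries. Trbj1 took 29.2% of summed Trbj RPKM in IgG 1, 61.7% in IgG 2, 45.1% in anti-SIGLEC15 1 and 34.4% in anti-SIGLEC15 2, and Trbj2 the remainder. IgG 2 was the only library in which Trbj1 held the larger share. The read shares of Trbj2 had intervals of 57.0% to 81.3% in IgG 1 and 33.0% to 42.5% in IgG 2, which do not overlap, so that pools of the same treatment differed beyond counting error. Trbj2 means were 54.6% ± 22.9 (SD, n = 2) in IgG and 60.2% ± 7.53 (SD, n = 2) in anti-SIGLEC15 (exact permutation p = 1, n = 2 per group). Their difference was 5.66 percentage points with all libraries and -10.6 without IgG 2. The share of the constant gene of the first cluster was also highest in IgG 2: Trbc1 took 39.0% of summed Trbc RPKM in IgG 2 and 19.9%, 18.4% and 15.4% in IgG 1, anti-SIGLEC15 1 and anti-SIGLEC15 2. Trbc1 and Trbc2 are nearly identical in sequence, and how reads that fit both were counted is not given in the sources used here.

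Both beta clusters were highest in IgG 2. Summed Trbj1 was 18.8, 308.8, 100.4 and 64.6 RPKM, and summed Trbj2 was 45.6, 192 and, in the anti-SIGLEC15 libraries, 122 and 123 RPKM. Of the 7 Trbj1 segments, 6 were highest in IgG 2 and 6 were lowest in IgG 1, and of the 7 Trbj2 segments, 4 were highest in IgG 2 and 3 lowest in IgG 1. Trbj1-5 stood at 6.24 RPKM in IgG 1, 76.1 in IgG 2, 25.5 in anti-SIGLEC15 1 and 14.8 in anti-SIGLEC15 2. Trbj1-6 stood at 3.53, 62.0, 20.4 and 16.5 RPKM, and Trbj1-4 at 3.67, 60.7, 8.74 and 13.2. In each, IgG 2 was the highest and IgG 1 the lowest. Trbj1-7 stood at 4.07, 44.8, 15 and 5.85 RPKM, Trbj1-3 at 0, 37.0, 21.2 and 9.97, and Trbj1-2 at 1.30, 28.2, 7.96 and 4.21. Trbj1-1 had a single read, in anti-SIGLEC15 1.

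**Figure D3:**
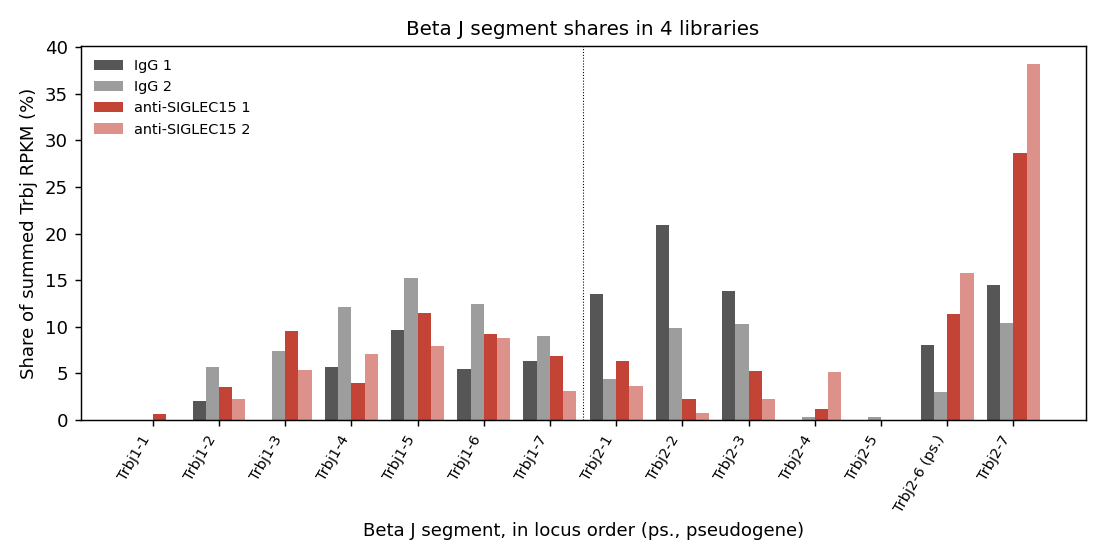
Share of summed Trbj RPKM in percent (vertical axis from 0) for each of 14 beta J segments in locus order, 1 bar per library, with a dotted line between the Trbj1 and Trbj2 clusters. Trbj2-7 takes 28.6% and 38.2% in the anti-SIGLEC15 libraries against 14.4% and 10.4% in the IgG libraries, and Trbj2-2 takes 2.24% and 0.70% against 20.9% and 9.84%.

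The Trbj2 cluster held segments whose values were separated by treatment in either direction, none of which passed the test. Trbj2-7, the last J before Trbc2, stood at 9.29 RPKM in IgG 1, 52.1 in IgG 2, 63.7 in anti-SIGLEC15 1 and 71.6 in anti-SIGLEC15 2, on 7, 38, 47 and 50 reads. Both anti-SIGLEC15 libraries were above both IgG libraries, with IgG 2 close below. Within Trbj2 it took 20.4%, 27.1%, 52.1% and 58.3% of RPKM. Its pooled read ratio was 2.23 (exact 95% interval 1.55 to 3.24, counting error only), and its limma log2 fold change was 1.55 (SE 0.79, Benjamini-Hochberg adjusted p = 1 after rounding).

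Trbj2-6, a pseudogene that ends 164 bases before Trbj2-7 begins, stood at 5.20, 14.8, 25.2 and 29.5 RPKM, on 4, 11, 19 and 21 reads. Both anti-SIGLEC15 libraries were again above both IgG libraries, with shares of Trbj RPKM of 8.07% and 2.95% in IgG and 11.3% and 15.7% in anti-SIGLEC15 (log2 fold change 1.52, SE 0.50). Trbj2-4 had 0, 1, 2 and 7 reads, a pooled read ratio of 9.29 with an exact 95% interval from 1.29 to 407, which counting error alone leaves wide. Trbj2-5 had 1 read, in IgG 2.

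Trbj2-2 was the only tested J segment that was lower in RPKM in both anti-SIGLEC15 libraries. It stood at 13.5 RPKM in IgG 1 and 49.3 in IgG 2, against 5.0 in anti-SIGLEC15 1 and 1.32 in anti-SIGLEC15 2, on 11, 39, 4 and 1 reads. The groups did not overlap even though IgG 1 had the fewest Trbj reads of all libraries. The pooled read ratio of anti-SIGLEC15 to IgG was 0.103 (exact 95% interval 0.0321 to 0.257, counting error only), and the limma log2 fold change was -2.85 (SE 0.76, Benjamini-Hochberg adjusted p = 1 after rounding). Its neighbour Trbj2-3 took 13.8% and 10.2% of Trbj RPKM in IgG against 5.26% and 2.20% in anti-SIGLEC15, but its RPKM of 8.91, 51.3, 11.7 and 4.12 overlapped. Trbj2-1 stood at 8.74, 21.9, 14.0 and 6.73 RPKM, with overlapping groups.

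Of 11 Trbj rows with at least 20 reads, 2 (Trbj2-6 and Trbj2-7) had a higher and 2 (Trbj2-2 and Trbj2-3) a lower share in both anti-SIGLEC15 libraries. The same rule within 18 Trbv segments found 22.2% higher and 27.8% lower, and the Trbj counts were not above these shares. The effective number of Trbj segments was 7.78 in IgG 1, 9.66 in IgG 2, 7.13 in anti-SIGLEC15 1 and 5.04 in anti-SIGLEC15 2, means of 8.72 ± 1.33 and 6.09 ± 1.48 (SD, n = 2 each). The groups did not overlap, and the exact permutation p was 0.333 (n = 2 per group), the smallest possible. Without Trbj2-7, the segment of the highest mean share, the difference of means was 0.28 in place of -2.63. Between libraries, 33.0% of Trbj RPKM would have to move within IgG, 21.1% within anti-SIGLEC15 and 32.2% to 46.8% between treatments.

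Across the whole table, limma tested the 12484 genes that reached 1 RPKM in 2 or more libraries, and 55 of the 70 J rows (43 Traj and 12 Trbj) passed that filter. At a Benjamini-Hochberg adjusted p under 0.05, 0 genes (0.0%) and 0 J segments were called. At an unadjusted p under 0.05 the counts were 146 genes (1.17%) and 9 of the 55 J segments. These 9 include Traj34, which is at 0 in both IgG libraries and could only come out higher. The limma-voom fit on recovered reads also called 0 genes, with 90 of 15061 at an unadjusted p under 0.05. Both anti-SIGLEC15 values lay above both IgG values for 11 J segments, 8 Traj and 3 Trbj, and below for 1, Trbj2-2. Over all genes tested, the shares were 12.1% above and 6.02% below. Beside Traj16, Traj27 and the 3 Trbj2 segments above, the higher ones were Traj26, Traj28, Traj30, Traj32, Traj34 and Traj41, all on few reads. From IgG 1 to anti-SIGLEC15 2, Traj26 had 1, 0, 1 and 3 reads and Traj28 had 1, 2, 5 and 3. Traj30 had 2, 5, 11 and 6 reads and Traj32 had 2, 2, 4 and 7. For Traj26, 1 read each in IgG 1 and anti-SIGLEC15 1 gave 1.04 and 1.06 RPKM, a gap set by counted reads alone. Traj34 and Traj41 passed the filter through the anti-SIGLEC15 libraries alone, on 1 and 5 reads and on 3 and 1 reads. Leaving them out, 9 of 53 tested J segments (17%) were higher. The 12.1% over all genes was not cut in the same way, so the 2 shares are not on like sets.

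The median log2 fold change was 0.60 over the tested J segments (0.77 for Traj, -0.23 for Trbj) and 0.02 over all genes tested, and 42 of the 55 values were positive, against 52.5% of all genes. The 55 include Traj34 and Traj41, which passed the filter through the anti-SIGLEC15 libraries alone. After scaling to the T cell markers, whose own median was 0.59, the medians were 0.28 for J segments and -0.52 for all genes. These values rest on IgG 1: without it, the J median was -0.20, and 6 J segments were called higher and 10 lower, while 1.13% of all genes were called. Without IgG 2, 33 were called higher and 1 lower, while 18.6% of all genes were called. These fits tested 55 J rows without IgG 1 and 49 without IgG 2. In them the lone IgG library is assumed to vary like the other group. Traj16, Traj27 and Trbj2-4 were called higher and Trbj2-2 lower in both, directions that their separated groups fix. Traj34 and Traj41, at 0 in both IgG libraries, could only come out higher, and their calls in both fits carry no weight. There were 0 J segments called when either anti-SIGLEC15 library was left out. Trbj2-6 and Trbj2-7 were called higher without IgG 2 (log2 fold changes 2.19 and 2.74, limma) and not without IgG 1 (0.84 and 0.37).

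**Figure D4:**
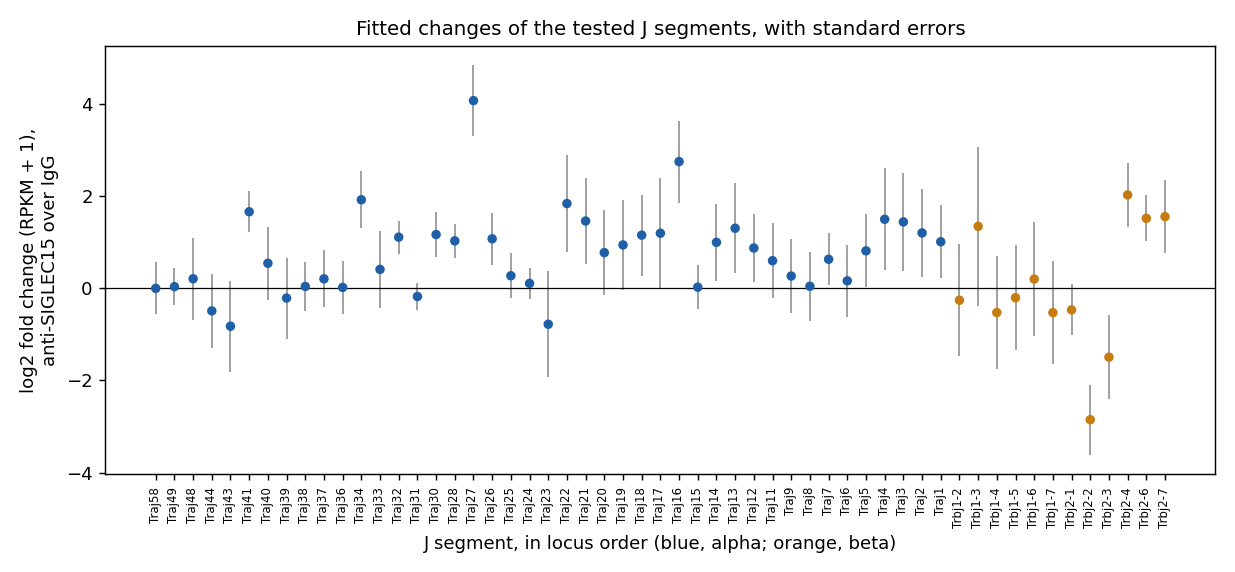
Fitted log2 fold change of RPKM + 1, anti-SIGLEC15 over IgG, with its standard error, for the 55 tested J segments in locus order (blue, Traj; orange, Trbj). Traj27 (4.07) and Traj16 (2.75) have the highest alpha values, and Trbj2-2 (-2.85) the lowest of all; none passed the adjusted threshold.

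Other genes of the pathway were counted as lists. Of the 5 constant and D genes, 0 were called, and Trbc2 was the 1 that was higher in both anti-SIGLEC15 libraries, at 1654 and 1662 RPKM against 431 and 1405. Trbd1, a D segment of 12 bases that recombines with either beta J cluster, stood at 629 and 290 RPKM in IgG and 648 and 303 RPKM in anti-SIGLEC15, on 121, 54, 122 and 54 reads. The 2 libraries numbered 1 were the high ones, an order unlike that of the J segments. Of 6 gamma and delta J genes, 5 were in the files: Trdj1 and Trdj2 were at 0 in all libraries, and Trgj1, Trgj2 and Trgj4 had at most 6 reads in a library. Of 12 genes of the recombination reaction, 10 were in the files. Dntt, which adds untemplated bases at the joints in developing lymphocytes, was at 0 in every library. Of the 8 tested, 0 were called, and Hmgb2, a DNA-bending protein, and Nhej1, an end-joining factor, were higher in both anti-SIGLEC15 libraries, 2 of 8 beside 12.1% of all genes tested. Hmgb2 stood at 105 and 214 RPKM against 273 and 227, and Nhej1 at 1.95 and 2.36 against 3.31 and 3.07.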

How the data were processed

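Poly(A) RNA of enriched CD8+ T cells was selected with oligo-coated beads and sequenced on a DNBSEQ-G50, per the labels' protocols. The deposited files give 1 value per Ensembl gene and library without naming the unit. They are read as RPKM computed by the authors, because each value times the GENCODE M21 exon length was a whole multiple of 1 step per library (within 0.02) for 98.92% to 98.97% of genes under 1000 reads. The submitters' processing notes name GRCm38 and mm10. For the aligner, the counter, its strand setting and multiply mapped reads, the methods were not given in the sources used here.

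Reads were recovered from that step. Groups follow the titles. The main test was limma 3.58.1 (R 4.3.3) with trend and robust shrinkage on log2(RPKM + 1), which understates changes of low genes. It took genes with at least 1 RPKM in 2 libraries, with Benjamini-Hochberg adjustment at 0.05. The simulated data on which it was tried held changes only in genes with more reads than most J rows have. That trial therefore says nothing about those rows. Sums, shares and ratios were compared by two-sided exact permutation, enumerated directly (Python 3.11.15, numpy 2.4.6). Wilson intervals and Spearman's rho came from scipy 1.17.1. The named segments were every Trbj row, the 10 Traj rows of highest mean share, up to 5 per direction with separated shares (at least 20 reads), and the 5 of widest range; Traj18 and Traj33 were added after their values were seen for their known receptors, and segments with separated RPKM for their count. Alternatives changed the pseudocount, filter, scaling, unit, rows, replicate block and libraries. Members and lists were chosen with earlier results of these data known.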

Additional observations from a re-analysis of the deposited data

How the results depend on the processing

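In all, 45 values of 9 results were recomputed with another test, pseudocount, filter, scaling, unit, choice of rows or block. Of these, 42 kept their direction or, for the count of called J segments, stayed at 0. Some could not change. No row overlaps another gene, so leaving out such rows changed nothing, and the block cannot move a plain difference of group means. No exact permutation p can pass 0.05 with 2 libraries per group, so these results were judged by direction only. With the replicate block, the log2 ratio of summed Trbj was 0.19 in place of -0.46, and 0 J segments were called. That 0.19 is a mean of log2 ratios, and either pairing of the libraries gives the same value. The turn of sign thus came from averaging on the log scale, not from the replicate numbers. The labels do not say that equal replicate numbers share an origin, deviations of same-numbered libraries correlated at 0.33 over 12484 genes, and with only 2 pairs the numbers were not taken as pairs. Without the segment of the highest mean share, the Trbj2 share difference (anti-SIGLEC15 minus IgG) was -7.99 percentage points in place of 5.66, and that of the effective number of Trbj segments 0.28. Leaving out each library in turn gave 0 to 34 called J segments, -1.29 to 1.67 for the log2 ratio of summed Trbj and 0.01 to 2.31 for Traj. It gave -10.6 to 21.9 percentage points for the Trbj2 share, -3.36 to 0.34 for Traj41 to Traj61, -1.79 to 0.42 for the Traj effective number and -3.68 to -1.59 for that of Trbj. The log2 fold changes then ran from -0.12 to 2.14 for Traj1, -0.14 to 3.01 for Traj3, and -0.20 to 1.57 for the J median. The signs of Traj1, Traj3 and the J median turned without IgG 1, those of summed Trbj, the Trbj2 share and Traj41 to Traj61 without IgG 2, and that of the Traj effective number without anti-SIGLEC15 1; the cause was not tested. Depth limits single segments: IgG 1 had 104 Traj and 51 Trbj reads, so that a segment at 0 reads there could hold up to 3.56% of Traj or 7.0% of Trbj reads.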
